A study of Homo sapiens with 11 samples.

Results

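The genes described here are 37 genes of glycolysis and of the response to low oxygen, followed step by step from the uptake of glucose to the export of lactate, in HCT116 cells that overexpress gelsolin. They were chosen by gene symbol, and a gene with several probes was represented by its brightest probe. Of the 37 genes, 33 had a probe on the array and 31 were bright enough to be tested, among 10267 genes tested in all. HCT116 is a human colorectal carcinoma line, and gelsolin is a regulator of the actin cytoskeleton. The compared lines were C1, C2, C3 and C8, which stably carry a plasmid with the coding sequence of human cytoplasmic gelsolin, and V4 and V5 (Vec4 and Vec5 in the sample labels), which stably carry the same plasmid without the insert. All 6 lines were selected with Geneticin, kept in Geneticin and carry the EGFP gene of the plasmid. The paper calls the gelsolin lines and the vector lines clones, so each line may differ from the others in more than gelsolin. No oxygen or glucose condition is part of the design. RNA came from 2 independent harvests a line, except for V5, of which 1 array is analysed here, and was read on Illumina HumanRef-8 beadchips, which gives 8 gelsolin and 3 vector arrays.

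Glycolysis splits glucose into pyruvate in the cytosol, and lactate dehydrogenase then reduces pyruvate to lactate, which leaves the cell with a proton. Most steps are run by families of isoenzymes, so a cell can change which isoenzyme it makes without changing the step. When oxygen is low, the prolyl hydroxylases that mark the hypoxia-inducible factors HIF1A and EPAS1 for destruction lose activity, and the stabilised factors raise transcription of glucose transporters, of many glycolytic enzymes and of genes such as CA9, BNIP3, NDRG1 and ADM. Many colorectal carcinoma lines use glucose heavily also where oxygen is plentiful. The factors are controlled mainly through the stability and activity of the protein, which an array does not measure.

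A value below is the scaled signal of a probe, that is the bead signal divided by the median of its array and multiplied by a common median of 88.35. Harvests of a line were averaged, and groups are given as mean ± SD over lines. Fold changes are gelsolin over vector lines on the log2 scale, with the standard error (SE) and the adjusted p of limma over all genes tested, and a gene is called higher or lower where that adjusted p is under 0.05. No background was subtracted, which makes the folds of dim probes too small. A probe's signal depends on its sequence, so levels are not compared between genes.

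The labels could be checked on GSN, the gene of gelsolin, whose signal lay between 187 and 271 on the gelsolin arrays and between 140.2 and 141 on the vector arrays. Beadchip 1 holds the first harvests (5 arrays) and beadchip 2 the second ones (6 arrays), except that the array of V5 lies on beadchip 2 under replicate number 1. Harvest and beadchip therefore cannot be told apart within a line. No pair of arrays was identical, and the correlation between arrays on the log2 scale ranged from 0.976 to 0.995. Of 11 markers of colon epithelium, 7 passed the filter. They were EPCAM, KRT8, KRT18, KRT19, CDX2, KRT20 and CDH1, the last with a signal of only 77.8 to 99.9. CDH17, VIL1, LGALS4 and CEACAM5 did not pass. KRT19 and KRT20 were called higher (log2 fold change 1.00 and 0.86, limma adjusted p = 0.00063 and 0.00617), and the other 5 were not called. KRT20 passed through gelsolin lines only, with vector arrays from 63.0 to 65.1. The summed signal of the 11 markers ranged from 22492 to 29806 over the gelsolin arrays and from 19676 to 27644 over the vector arrays. Markers of other cells were dim. COL1A1 alone of 5 fibroblast markers, HLA-DRA alone of 4 leukocyte markers with a probe and VWF alone of 4 endothelial markers passed, none with a signal above 177.8 on any array, and their log2 fold changes were -0.56, 0.45 and 0.70 (limma adjusted p = 0.00315, 0.0104 and 0.00186). The summed signals of these 3 lists, in that order, were 307 to 374, 242 to 278 and 275 to 354 on the gelsolin arrays and 356 to 436, 244 to 259 and 271 to 286 on the vector arrays. Their part in the results was not tested. HLA-DRA and VWF, like KRT20, passed the filter through gelsolin lines only. Vector arrays gave 62.1 to 68.6 for HLA-DRA and 70.4 to 80.6 for VWF. Genes kept in this way were selected for being brighter in gelsolin lines. The higher calls of KRT20, HLA-DRA and VWF are therefore not independent of the filter.

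Sequences are shown for the start regions of ENO2, ALDOC and BNIP3, 3 of the genes that were called higher, and of SLC2A1, which was called lower. These 4 genes were chosen after their values were seen. The sequences are the 250 bases before the transcription start in the RefSeq annotation of GRCh38.p14, on the strand of the gene, and capitals mark each ACGTG or GCGTG on either strand, the core letters that hypoxia-inducible factors recognise. ENO2 lies on chr12:6914330-6914579 (+), ALDOC on chr17:28576896-28577145 (-), BNIP3 on chr10:131981924-131982173 (-) and SLC2A1 on chr1:42958869-42959118 (-).
ENO2: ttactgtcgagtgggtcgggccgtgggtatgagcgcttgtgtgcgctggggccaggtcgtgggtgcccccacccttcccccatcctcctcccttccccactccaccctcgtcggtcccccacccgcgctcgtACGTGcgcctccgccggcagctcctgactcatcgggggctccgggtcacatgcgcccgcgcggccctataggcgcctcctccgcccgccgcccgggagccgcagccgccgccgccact
ALDOC: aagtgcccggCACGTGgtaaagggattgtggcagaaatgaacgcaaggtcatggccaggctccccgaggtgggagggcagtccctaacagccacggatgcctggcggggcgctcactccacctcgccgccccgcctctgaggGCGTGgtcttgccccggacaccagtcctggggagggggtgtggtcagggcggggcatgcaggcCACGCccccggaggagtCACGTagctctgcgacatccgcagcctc
BNIP3: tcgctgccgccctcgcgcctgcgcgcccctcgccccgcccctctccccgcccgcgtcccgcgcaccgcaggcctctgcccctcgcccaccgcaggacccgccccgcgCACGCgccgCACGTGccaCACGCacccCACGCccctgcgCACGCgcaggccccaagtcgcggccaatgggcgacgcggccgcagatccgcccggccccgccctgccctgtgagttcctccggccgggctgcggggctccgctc
SLC2A1: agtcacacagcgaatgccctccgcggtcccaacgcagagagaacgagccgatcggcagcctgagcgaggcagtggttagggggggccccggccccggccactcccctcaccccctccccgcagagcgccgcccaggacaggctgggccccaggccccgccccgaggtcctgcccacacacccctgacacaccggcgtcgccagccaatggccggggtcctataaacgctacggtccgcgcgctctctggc
The window held 1 match in ENO2, which begins 118 bases before the start, 5 in ALDOC, 6 in BNIP3 and 0 in SLC2A1. In ALDOC and BNIP3 the letters CACGTG count on both strands, as 2 overlapping matches. Among genes not printed, HK2 and LDHA, neither called, had windows with 6 and 5 matches. The windows of ENO3, called lower, held 2 and 0. A link between matches and direction was not tested. RefSeq windows were matched for 33 of the 37 genes, not for SLC2A3, NDRG1, BNIP3L and SLC16A1. Of their 62 windows, 37 (59.68%) held at least 1 match, against 15172 of the 35116 windows of all genes (43.21%). The share was 9 of 21 windows (42.86%) for the genes called higher, 1 of 3 (33.33%) for those called lower and 22 of 28 (78.57%) for the tested genes that were not called. Counted by gene, at least 1 window held a match in 9 of 9 genes called higher, 1 of 2 called lower and 15 of 17 not called, against 12945 of the 27305 genes of all windows. Genes with several starts have more windows, many of them overlapping, and so more chances of a match, and HK1 and PFKM alone supply 14 of the 21 windows of the genes called higher. A match is a description of letters in this window.

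Of the 31 genes tested, 9 were higher in the gelsolin lines and 3 were lower. Called higher were HK1, PFKL, PFKM, ALDOC, GAPDH, PGK1, ENO2, PDK3 and BNIP3, which is 29.0% of the genes tested, where 12.8% of all genes were called higher. Lower were SLC2A1, ENO3 and NDRG1, 9.68% of the genes tested, where 9.40% of all genes were. The median log2 fold change was 0.26 over the 31 genes and 0.02 over all genes tested, with 20 of the 31 above 0. The gelsolin arrays were all above the vector arrays in 8 of the 31 genes, and in 11.0% of all genes. They were all below in 4 of the 31, against 9.22% of all genes. These are RNA levels of whole cultures, in which fewer cells of a kind and less RNA per cell cannot be told apart. Of the 9 called higher, 8 lost the call without V5, ENO2 being the exception, and 6 did without V4. With V4 or V5 left out, the remaining vector line is assumed to vary like the gelsolin lines.

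**Figure D1:**
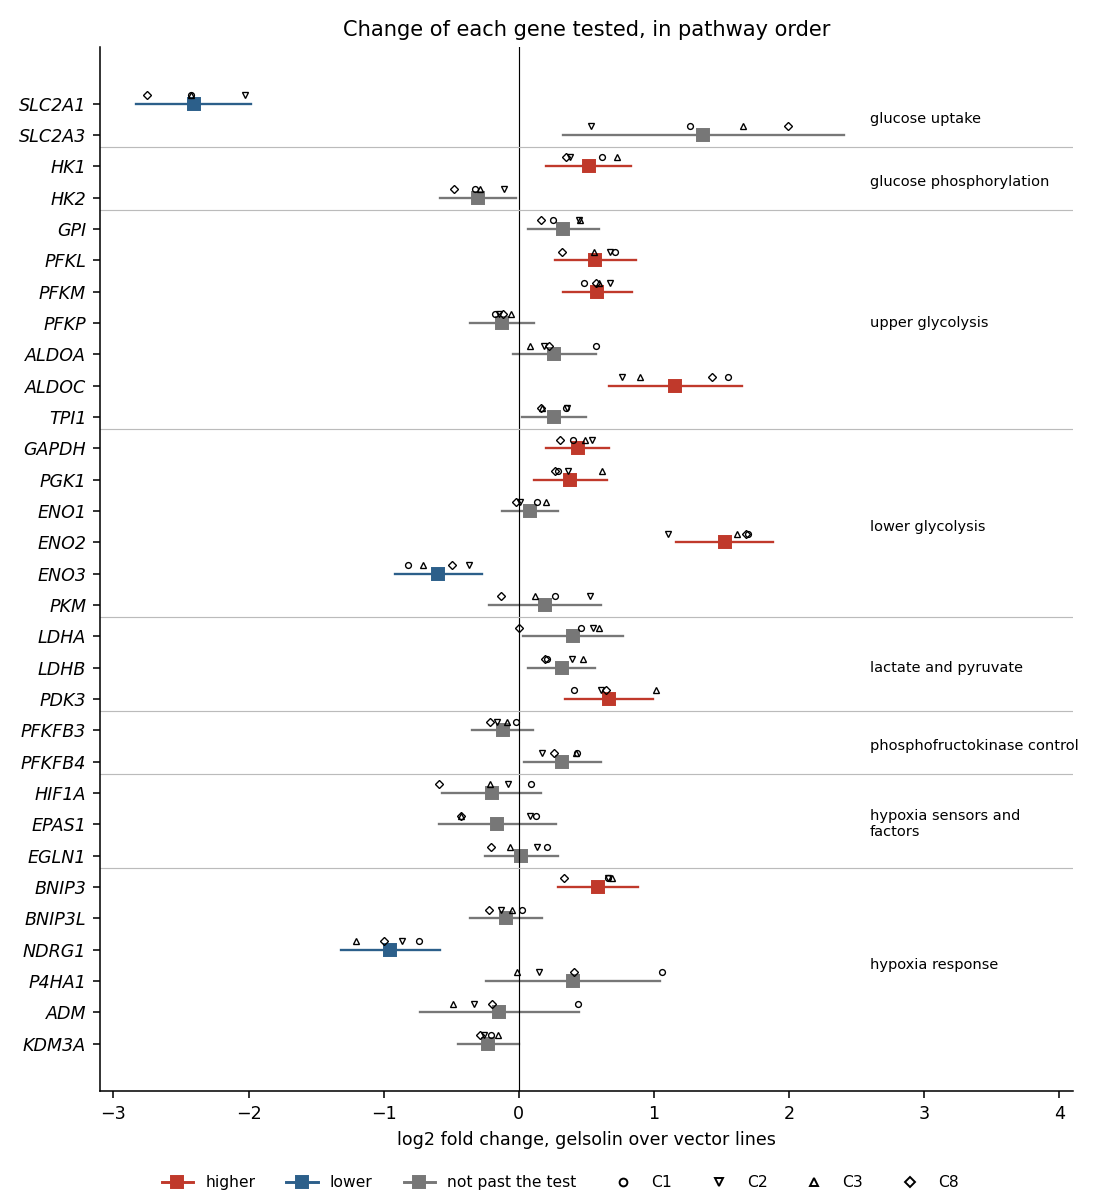
Log2 fold change, gelsolin over vector lines, of the 31 genes tested, ordered from glucose uptake to the hypoxia response. Squares are the limma estimate with its 95% interval, coloured by call, and the open symbols are the 4 gelsolin lines against the mean of the 2 vector lines. SLC2A1 stands at -2.41 at one end, ENO2 at 1.52 at the other.

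Glucose enters cells through facilitative transporters, and of the 2 transporters of the list 1 was lower and 1 was not called. SLC2A1 encodes GLUT1, the widely expressed transporter that is a standard target of the hypoxia-inducible factors. Its signal was 216 and 224 for the first and second harvest of C1, 234 and 359 for C2, 197 and 244 for C3, 158 and 195 for C8, 1254 and 1508 for V4, and 1013 for V5. Every gelsolin array lay below every vector array by a wide margin. The group means were 226 ± 47.4 (SD, n = 4 lines) and 1194 ± 256 (SD, n = 2 lines), so that the log2 fold change was -2.41 (SE 0.19, limma adjusted p = 3.51e-05), or a signal 5.30-fold higher in the vector lines. The size of this difference exceeded that of 99.9% of all genes tested. It was -2.65 within beadchip 1 and -2.31 within beadchip 2, and the call held in each alternative run, with adjusted p of at most 0.0381.

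SLC2A3, which encodes the high-affinity transporter GLUT3 best known from neurons, did not pass the test. It gave 187 and 322 for C1, 147 and 148 for C2, 265 and 389.9 for C3, 360.2 and 456 for C8, 95.0 and 121 for V4, and 96.2 for V5. All gelsolin arrays were above all vector arrays, C2 the nearest to them and C8 the farthest. The means were 279.8 ± 109.8 (SD, n = 4) and 102 ± 7.98 (SD, n = 2), with a log2 fold change of 1.37 (SE 0.41) and a 95% interval from 0.32 to 2.41. The limma adjusted p was 0.0735, and without C2 the gene passed (adjusted p = 0.000153). It also passed with arrays in place of line means and the beadchip as a covariate (log2 fold change 1.42, adjusted p = 0.0172).

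**Figure D2:**
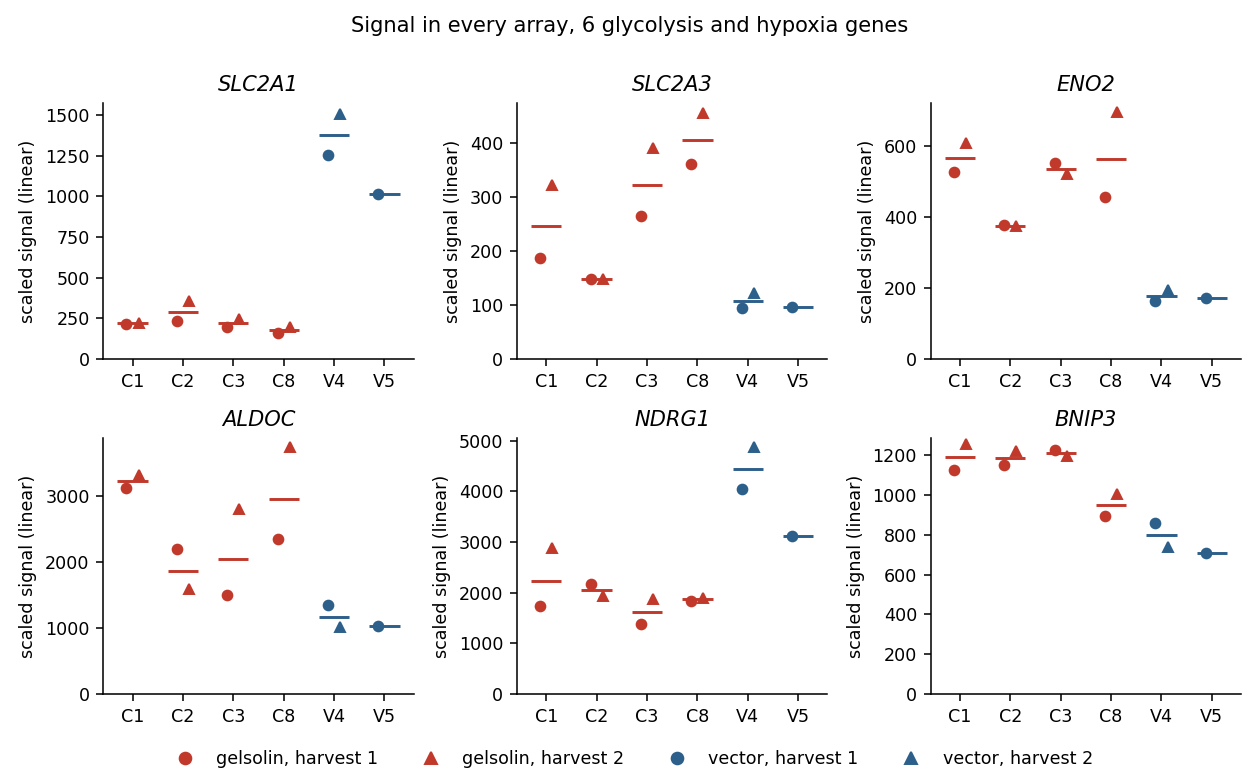
Scaled signal (linear axis from 0) on every array of 6 of the genes. Circles are first and triangles second harvests, red for gelsolin and blue for vector lines, and bars are line means. SLC2A1 and NDRG1 are lower on each gelsolin array than on each vector array, while SLC2A3, which did not pass the test, ENO2, ALDOC and BNIP3 lie above.

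Hexokinases trap glucose in the cell by phosphorylation. HK1, the constitutive isoenzyme, gave 2804 and 2999 for C1, 2608 and 2323 for C2, 3214 and 3074 for C3, 2382 and 2449.7 for C8, 2298 and 1971 for V4, and 1687 for V5. The groups did not overlap, but the second C2 array and the first V4 array were close. HK1 was higher in the gelsolin lines, 2730.0 ± 352 (SD, n = 4) against 1908 ± 312 (SD, n = 2), with a log2 fold change of 0.52 (SE 0.14, limma adjusted p = 0.0243). Within beadchip 1 the value was 0.25 and within beadchip 2 it was 0.56. HK2, the hexokinase that is induced in many tumours and by hypoxia, did not pass, at 294 ± 30.6 (SD, n = 4) and 361 ± 33.6 (SD, n = 2) with a log2 fold change of -0.30 (95% interval -0.58 to -0.02, limma adjusted p = 0.119). Under quantile normalization HK2 was called lower. The other 2 HK1 probes were too dim to be tested, with signals from 42.3 to 74.9.

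Of the 7 genes of upper glycolysis, which turns glucose 6-phosphate into triose phosphates, PFKL, PFKM and ALDOC were higher and none was lower. Phosphofructokinase commits the sugar to glycolysis and is built from liver, muscle and platelet subunits. The muscle subunit PFKM gave 1139.7 and 870.2 for C1, 1111 and 1155 for C2, 1043 and 1103 for C3, 1137 and 987 for C8, 797 and 686 for V4, and 684 for V5. No gelsolin array reached down to the vector arrays. Means were 1065 ± 56.3 (SD, n = 4) and 712 ± 38.9 (SD, n = 2), a log2 fold change of 0.58 (SE 0.12, limma adjusted p = 0.00488). The liver subunit PFKL gave 413 and 463 for C1, 407 and 448 for C2, 379 and 406 for C3, 357 and 311 for C8, 324 and 255 for V4, and 248 for V5. One C8 array lay below the first V4 array, and the log2 fold change was 0.57 (SE 0.14, limma adjusted p = 0.0125) from means of 397 ± 47.0 (SD, n = 4) and 268 ± 27.7 (SD, n = 2). The platelet subunit PFKP gave 2637 ± 95.6 (SD, n = 4) and 2877 ± 123 (SD, n = 2), with a log2 fold change of -0.13 (95% interval -0.36 to 0.11, limma adjusted p = 0.432). Within beadchips 1 and 2 the values were 0.47 and 0.58 for PFKM and 0.26 and 0.68 for PFKL. The differences between subunits were not tested.

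Aldolase splits fructose 1,6-bisphosphate. Its brain-type isoenzyme ALDOC gave 3133 and 3328 for C1, 2195 and 1596 for C2, 1510.2 and 2804 for C3, 2348 and 3749 for C8, 1356 and 1018 for V4, and 1037 for V5. The gelsolin arrays were all above the vector arrays but differed from each other by more than the vector arrays did. ALDOC was higher at 2531 ± 667 (SD, n = 4) against 1106 ± 97.9 (SD, n = 2), a 2.23-fold difference (log2 fold change 1.16, SE 0.22, limma adjusted p = 0.00594). The value was 0.71 within beadchip 1 and 1.41 within beadchip 2, and without V5 the adjusted p was 0.0748. ALDOA, the isoenzyme of muscle and of most proliferating cells, was not called (log2 fold change 0.26, 95% interval -0.04 to 0.57, limma adjusted p = 0.205), and its second harvest of C1 was the brightest array with 5610.4. The other 2 ALDOA probes stayed between 50.3 and 68.1 and were not tested. GPI, which isomerises glucose 6-phosphate, and TPI1, which interconverts the triose phosphates, had log2 fold changes of 0.33 and 0.26 (limma adjusted p = 0.0695 and 0.110) and were not called.

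In lower glycolysis, which makes ATP and pyruvate, GAPDH, PGK1 and ENO2 were higher and ENO3 was lower among 6 genes tested. PGAM1 had no probe. GAPDH, which oxidises the triose phosphate and often serves as a reference gene, gave 5152 and 6094 for C1, 5434 and 7015 for C2, 5547 and 6345 for C3, 5708 and 4812 for C8, 5043 and 3730.0 for V4, and 4134 for V5. Only the second C8 array fell below the first V4 array. The means of 5738 ± 405 (SD, n = 4) and 4235 ± 144 (SD, n = 2) differed by 0.44 on the log2 scale (SE 0.11, limma adjusted p = 0.0129). The GAPDH value was 0.11 within beadchip 1 and 0.61 within beadchip 2. PGK1, the first step that yields ATP, gave 4101 and 4391 for C1, 4139 and 4823 for C2, 6175 and 4571 for C3, 4695 and 3720.4 for C8, 3858 and 3576 for V4, and 3252 for V5. It was called by a narrow margin (log2 fold change 0.38, SE 0.13, limma adjusted p = 0.0469), and the call was lost in 14 of the 20 alternatives. Within beadchips 1 and 2 the PGK1 values were 0.29 and 0.35. GAPDH, PGK1 and other abundant glycolytic genes have processed pseudogenes, and cross-hybridisation of the probes was not tested.

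Enolase makes phosphoenolpyruvate, and of its 3 genes 1 was higher, 1 was lower and 1 was not called. ENO2, the neuron-specific enolase and a hypoxia target, gave 526 and 609 for C1, 376 and 375 for C2, 551 and 521 for C3, 455 and 694 for C8, 162 and 194 for V4, and 173 for V5. The lowest gelsolin array was far above the highest vector array. Its means were 509.8 ± 90.5 (SD, n = 4) and 175 ± 3.03 (SD, n = 2), a 2.88-fold difference (log2 fold change 1.52, SE 0.16, limma adjusted p = 0.000129). ENO2 was at 1.54 within beadchip 1 and at 1.55 within beadchip 2, and its call held in each alternative run. The muscle enolase ENO3 gave 426 and 304 for C1, 548 and 443 for C2, 395 and 386 for C3, 419 and 490.0 for C8, 554 and 614 for V4, and 695 for V5. Groups were separate but nearly touched at the first C2 and first V4 arrays. It was lower in the gelsolin lines, at 424 ± 60.0 (SD, n = 4) against 639 ± 79.3 (SD, n = 2), with a log2 fold change of -0.60 (SE 0.15, limma adjusted p = 0.0139). ENO3 was at -0.32 within beadchip 1 and at -0.71 within beadchip 2, and its call was lost without V5, where it was at -0.47. ENO1, the common isoenzyme, gave 15907 ± 1163 (SD, n = 4) and 15018 ± 592 (SD, n = 2), and its log2 fold change of 0.08 had a 95% interval from -0.13 to 0.29 (limma adjusted p = 0.577).

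PKM, pyruvate kinase, closes glycolysis. It gave 279 and 538 for C1, 367 and 587 for C2, 328 and 376 for C3, 299 and 290.2 for C8, 421 and 344 for V4, and 273 for V5. Groups overlapped, and the second harvests of C1 and C2 were the high arrays. The log2 fold change was 0.19 (95% interval -0.22 to 0.61, limma adjusted p = 0.491), with -0.41 within beadchip 1 and 0.49 within beadchip 2. The second PKM probe that passed the filter differed by 0.07.

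Lactate dehydrogenase is built from the subunits LDHA, which favours lactate, and LDHB, which favours pyruvate. LDHA gave 8734 and 10372 for C1, 10589 and 9689.8 for C2, 11215 and 9643 for C3, 6838 and 7007 for C8, 9204 and 6501 for V4, and 6167 for V5. C8 lay at the level of the vector arrays, the other gelsolin lines above most of them. LDHA did not pass (log2 fold change 0.40, 95% interval 0.03 to 0.77, limma adjusted p = 0.114), and it was called higher once C8 was left out. LDHB was higher on each gelsolin array than on any vector array, at 5312 ± 511 (SD, n = 4) and 4248 ± 79.9 (SD, n = 2), but its log2 fold change of 0.32 missed the threshold (limma adjusted p = 0.0655). PDK3, a kinase that switches off pyruvate dehydrogenase and so keeps pyruvate from the mitochondrial citrate cycle, gave 143 and 124 for C1, 155 and 153 for C2, 231 and 178 for C3, 168 and 147 for C8, 101 and 87.8 for V4, and 108 for V5. All gelsolin arrays were above the vector arrays, C3 most of all. PDK3 was higher, 162 ± 29.3 (SD, n = 4) against 101 ± 9.61 (SD, n = 2), with a log2 fold change of 0.67 (SE 0.15, limma adjusted p = 0.0093), and with 0.77 and 0.62 within beadchips 1 and 2. PDK1, the pyruvate dehydrogenase kinase known as a hypoxia target, was too dim to be tested (48.4 to 73.8), and the lactate transporters SLC16A1 and SLC16A3 had no probe, so export was not measured.

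The enzymes PFKFB3 and PFKFB4 set the level of fructose 2,6-bisphosphate, the activator of phosphofructokinase, and both are known hypoxia targets. Neither passed the test. PFKFB3 gave 139 ± 8.14 (SD, n = 4) and 151 ± 12.6 (SD, n = 2), a log2 fold change of -0.12 (95% interval -0.34 to 0.10, limma adjusted p = 0.434). PFKFB4 gave 608 ± 53.1 (SD, n = 4) and 487 ± 61.3 (SD, n = 2), a log2 fold change of 0.32 (95% interval 0.04 to 0.61, limma adjusted p = 0.101).

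None of the 3 oxygen-sensing genes tested passed in either direction. HIF1A, the main hypoxia-inducible subunit, gave 436 and 714 for C1, 428 and 574 for C2, 376 and 546 for C3, 307 and 396 for C8, 539 and 506 for V4, and 528 for V5. In each gelsolin line the second harvest was higher, and the vector arrays lay inside the gelsolin range. The log2 fold change was -0.20 (95% interval -0.57 to 0.17, limma adjusted p = 0.422), with -0.49 within beadchip 1 and 0.08 within beadchip 2, and the second HIF1A probe differed by -0.14. EPAS1, which encodes HIF-2α, fell into a brighter pair of gelsolin lines, C1 and C2 (1223 to 1351), and a dimmer pair, C3 and C8 (837 to 936), with the vector arrays between 1029 and 1484. Its log2 fold change was -0.16 (95% interval -0.59 to 0.27, limma adjusted p = 0.593). EGLN1, the main prolyl hydroxylase that marks HIF1A, had a log2 fold change of 0.02 (95% interval -0.25 to 0.29, limma adjusted p = 0.931). EGLN3, a hydroxylase that is itself hypoxia-induced, was too dim to be tested (70.5 to 84.7).

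Among 6 classic hypoxia-response genes tested, BNIP3 was higher, NDRG1 was lower and 4 were not called. CA9, the carbonic anhydrase often used as a hypoxia marker, had no probe. BNIP3, a mitochondrial outer membrane protein that takes part in mitophagy, gave 1125 and 1258 for C1, 1152 and 1222 for C2, 1227 and 1197 for C3, 892 and 1006 for C8, 860.2 and 737 for V4, and 709.8 for V5. C1, C2 and C3 stood together, and C8 lay between them and the vector arrays. Means of 1134 ± 125 (SD, n = 4) and 753 ± 61.0 (SD, n = 2) gave a log2 fold change of 0.59 (SE 0.14, limma adjusted p = 0.0102), with 0.34 within beadchip 1 and 0.69 within beadchip 2. Its relative BNIP3L gave 712 ± 50.7 (SD, n = 4) and 759.7 ± 45.7 (SD, n = 2) and was not called (log2 fold change -0.09, limma adjusted p = 0.615). NDRG1, a stress-induced gene that responds to hypoxia and to iron chelation, gave 1736 and 2875 for C1, 2163 and 1942 for C2, 1385 and 1879 for C3, 1839 and 1895 for C8, 4049.6 and 4877 for V4, and 3116 for V5. No gelsolin array reached the vector arrays, and the second C1 array came nearest. NDRG1 was lower, 1941 ± 265 (SD, n = 4) against 3780.0 ± 939 (SD, n = 2), a log2 fold change of -0.95 (SE 0.17, limma adjusted p = 0.00231), and without V4 the adjusted p was 0.0546. The within-beadchip values of NDRG1 were -1.20 and -0.88.

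P4HA1, a subunit of the collagen prolyl hydroxylase, had a log2 fold change of 0.40 with a wide 95% interval from -0.25 to 1.05 (limma adjusted p = 0.346), and C1 (692 and 1193) and the second harvest of C8 (782) stood above the other arrays (359 to 519). Its second probe that passed the filter differed by 0.14. ADM, the vasodilator peptide adrenomedullin, reached 7485 in the first harvest of C1 and lay between 2727 and 4679 on all other arrays (log2 fold change -0.14, limma adjusted p = 0.722). KDM3A, a histone H3 lysine demethylase induced by hypoxia, was lower on each gelsolin array (146 to 177) than on any vector array (178 to 203), but the log2 fold change of -0.23 did not pass (limma adjusted p = 0.139).

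The 4 gelsolin lines did not all differ from the vector lines by the same amount. Over the 31 genes the median log2 difference from the mean of the vector lines was 0.29 in C1, 0.18 in C2, 0.17 in C3 and 0.16 in C8, all against the same V4 and V5 arrays. C2 was the line nearest to the vector lines in SLC2A1, SLC2A3, ENO2 and ALDOC. Its SLC2A3 was 0.54 above the vector lines, where the other 3 lines were 1.27 to 1.99 above. For ENO2 the C2 value was 1.10 and the others were 1.62 to 1.70. For SLC2A1 C2 was at -2.03 and the others between -2.75 and -2.42. C8 was the line with the smallest difference in HK1 (0.35), PFKL (0.32), GAPDH (0.31), PGK1 (0.27), LDHA (0.00) and BNIP3 (0.33). Leaving out C8 raised the number of genes called higher from 9 to 12, with GPI, LDHA and LDHB added. Over all genes it also raised the share called higher, from 12.8% to 15.2%. The vector lines also differed from each other, with V4 above V5 by 0.51 in NDRG1, 0.48 in PKM, 0.44 in SLC2A1 and 0.42 in EPAS1.

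Second harvests were set against first ones in the 5 lines with both, paired by line in limma, which estimates the mean shift over lines. Changes of opposite sign cancel in that mean, so it does not measure how far single harvests of a line vary. In GAPDH the mean was 0.02 with lines from -0.44 to 0.37, and in ALDOC it was 0.16 with lines from -0.46 to 0.89. No gene was called (0% of all genes in either direction), and 0 of the 31 were. At an unadjusted p under 0.05 stood 1132 of all genes (11.0%) and 8 of the 31, 7 of them higher in the second harvest. These counts were 782 and 4 without C1, 727 and 6 without C2, 723 and 7 without C3, 1738 and 8 without C8, and 471 and 2 in the unpaired comparison. With the unpaired comparison, or with eBayes without trend and robust settings, the count of calls was also 0, with no filter on dim probes 3 genes were higher, and without C8 26 genes were higher and 21 lower, none of them among the 31. The 31 genes had a median difference of 0.04, against 0.01 over all genes. P4HA1 had a difference of 0.51 (SE 0.12, limma adjusted p = 0.227), with the second harvest above the first in 5 of 5 lines. SLC2A3 differed by 0.41, HIF1A by 0.39, BNIP3L by 0.35 and SLC2A1 by 0.31 (limma adjusted p from 0.292 to 0.378). HIF1A and BNIP3L were higher in the second harvest of the 4 gelsolin lines and lower in that of V4 (-0.09 and -0.07). The second harvest of C1 was high in several genes, with differences of 0.95 in PKM, 0.84 in BNIP3L, 0.79 in P4HA1, 0.74 in ALDOA and 0.73 in NDRG1. Without that array, an alternative chosen after the data were seen, 8 of the 31 genes were called higher and 3 lower, and the median was 0.25. For SLC2A1 the mean harvest difference was 0.31, with 0.62 in C2 as the largest of a line, beside a difference of -2.41 between the groups. For P4HA1, HIF1A, BNIP3L, PKM, ALDOA, EGLN1, ENO1 and ADM, none of them called, the mean harvest difference exceeded that between the groups in size.

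**Figure D3:**
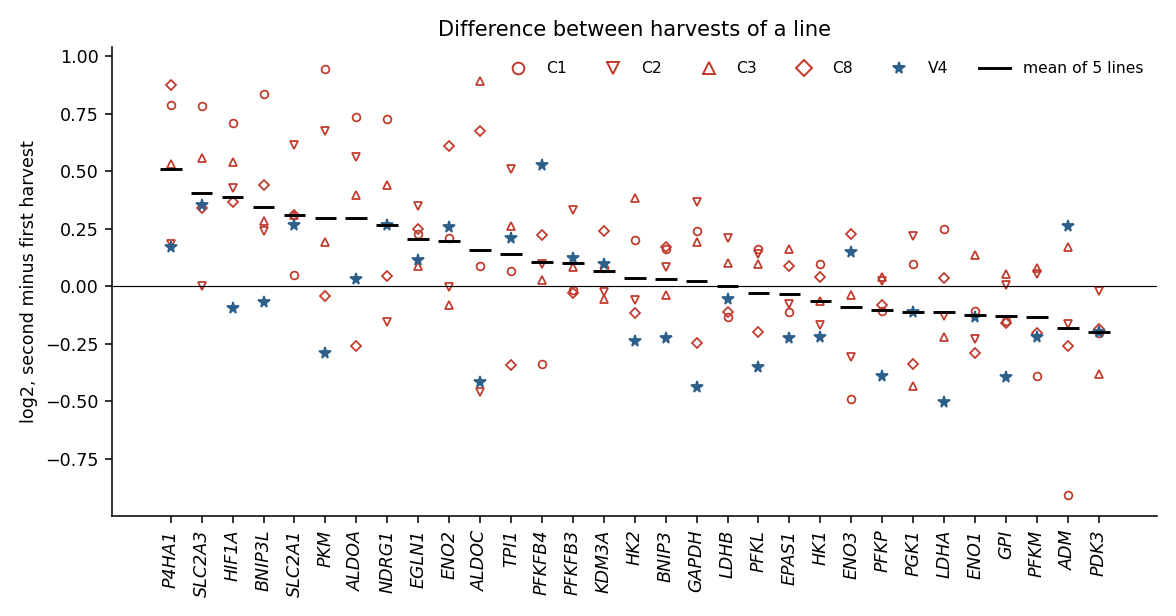
Log2 difference between the second and the first harvest for the 31 genes tested, in order of the mean, with 1 symbol per line and bars for the mean of the 5 lines. P4HA1 stands at 0.51 on one side, PDK3 at -0.20 on the other, and no gene passed the paired limma test.

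Neighbouring parts of metabolism and of the hypoxia response were counted from 5 further lists. Of 16 other glycolysis genes tested (31 listed, 29 with a probe), 2 were higher, 2 were lower and the median log2 fold change was 0.02. SLC2A6, a hexose transporter related to GLUT1, was higher (540.1 ± 37.7 against 312 ± 3.89, log2 fold change 0.79, limma adjusted p = 0.000835), and so was SLC2A12, another member of that family (0.41, limma adjusted p = 0.0123). TIGAR, a phosphatase that lowers fructose 2,6-bisphosphate and slows glycolysis, was lower (217 ± 26.8 against 391 ± 20.8, log2 fold change -0.86, limma adjusted p = 0.00102). PCK2, the mitochondrial enzyme that makes phosphoenolpyruvate from oxaloacetate, was lower by -1.26 on the log2 scale (limma adjusted p = 0.00209), and its arrays overlapped through the second harvest of C1 (1524). With arrays in place of line means and the line as a random block PCK2 lost its call (adjusted p = 0.0602), as it did with the beadchip as a covariate (0.0918) and within beadchip 2 (-0.85, adjusted p = 0.203). Of 8 pentose phosphate genes tested, TKT, transketolase, was higher at 6036 ± 225 against 3901 ± 574 (log2 fold change 0.64, limma adjusted p = 0.00213) and none was lower, with a median of 0.19.

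The pyruvate dehydrogenase and citrate cycle list had 4 genes higher and 1 lower of 24 tested, with a median of 0.10. Of 5 isocitrate dehydrogenase genes, mitochondrial IDH2 (0.86, limma adjusted p = 0.00109) and IDH3G (0.71, limma adjusted p = 0.00665) were higher and cytosolic IDH1 was lower (-0.48, limma adjusted p = 0.0160), while mitochondrial IDH3A (-0.17) and IDH3B (0.07) were not called (limma adjusted p = 0.395 and 0.737). The last 2 were added after their values were seen. IDH1 lost its call with the line as a random block (adjusted p = 0.0524). PDP1, the phosphatase that reverses the action of PDK3 and its relatives on pyruvate dehydrogenase, was higher too (0.49, limma adjusted p = 0.0146).

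Hypoxia-induced genes beyond the 37 were mixed. Of 26 tested, 6 were higher (23.1%) and 4 were lower (15.4%), with a median of -0.08. STC2, a secreted stanniocalcin, gave 626 ± 179 against 2006 ± 371 (log2 fold change -1.71, limma adjusted p = 0.00127), and VEGFA, the angiogenic growth factor, gave 109 ± 13.2 against 167 ± 8.80 (-0.62, limma adjusted p = 0.00284). Both were lower on each gelsolin array than on any vector array, as were SLC2A1 and NDRG1. CITED2, which competes with HIF1A for its coactivator, was higher (0.75, limma adjusted p = 0.00447), and so was PLOD2, a collagen lysyl hydroxylase (0.57, limma adjusted p = 0.0143). Of 14 other oxygen sensors, ligases and cofactors tested, none was higher and 3 were lower, with a median of -0.09. These were VHL, the ubiquitin ligase subunit that binds hydroxylated HIF1A (467 ± 33.7 against 684 ± 3.77, log2 fold change -0.55, limma adjusted p = 0.00701), SIAH2, a ligase that degrades prolyl hydroxylases (-0.44, limma adjusted p = 0.0219), and EP300, the coactivator (-0.30, limma adjusted p = 0.0230). Without V4 none of these 3 was called (adjusted p from 0.0717 to 0.153), nor without V5 (0.0799 to 0.125) or within beadchip 1. The count of the other hypoxia-induced genes became 2 higher and 2 lower without V4, and 0 higher and 2 lower without V5 or within beadchip 1. Of the citrate cycle list 2 were higher and 0 lower without V4, and 1 higher and 0 lower without V5. TKT lost its call without V5 (adjusted p = 0.0688). Within beadchip 1 no gene of the other glycolysis, pentose phosphate or citrate cycle lists was called. The shares called in all 5 lists in the main fit are to be read against the 12.8% higher and 9.40% lower of all genes. The counts without V4, without V5 or within beadchip 1 are not. Each of those fits left a single vector line and called fewer of all genes.

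**Figure D4:**
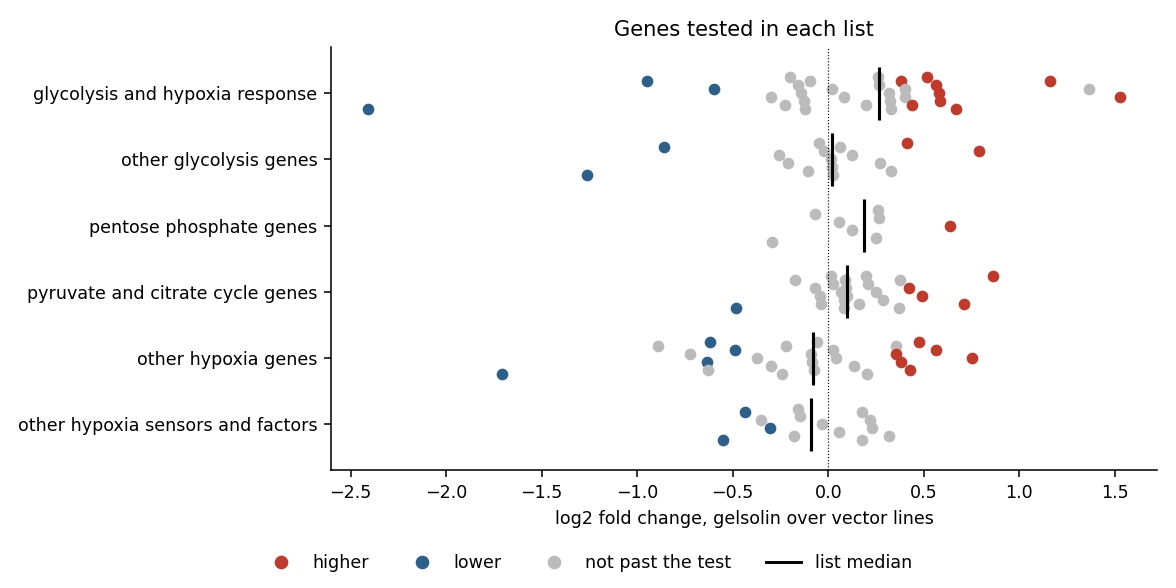
Log2 fold change, gelsolin over vector lines, of each tested gene in the 37-gene list and in the 5 further lists, 1 point per gene, red for called higher, blue for called lower and grey for not called, with a bar for the median. The medians run from -0.09 for the other hypoxia sensors and factors to 0.26 for the glycolysis and hypoxia response genes.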

How the data were processed

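RNA of 6 HCT116 lines was measured on 11 Illumina HumanRef-8 arrays. The deposited intensities are linear bead signals of 20596 probes, exported from BeadStudio by the authors without normalization between arrays. They come without detection p-values. The authors also deposited a ratio table made in GeneSpring (array divided by its 50th percentile, probe by a baseline), which equals the intensities over the array median up to 1 constant per probe and gives the same differences. Array number, not read depth, limits the precision.

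Each array was divided by its median and multiplied by 88.35, and log2 values of a line's harvests were averaged. A probe was kept where its line mean exceeded 88.35 in at least 2 of 6 lines (10733 probes, 10267 genes, 879 of them unnamed). Symbols came from the platform annotation (18389 probes with 1 symbol, 0 with several, 2207 with none), updated to RefSeq. Gelsolin lines (4) were set against vector lines (2) in limma (version 3.58.1, R version 4.3.3, functions lmFit and eBayes, trend and robust on), with 2-sided p-values adjusted after Benjamini-Hochberg over the genes tested. Means ± SD are over line values, and folds are powers of the log2 estimate. The labels do not say whether the lines arose independently, so p-values measure only the spread between these lines, array noise included. The harvest test used the same tool with the line as a block. The code was tested on simulated data. The methods' one-way analysis of variance was an alternative.

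The members and lists were chosen with earlier results of these data known. Every member with a probe may be named, with all arrays for called members and for SLC2A1, HIF1A, LDHA and PKM, and of each other list at most 4 called genes with the smallest adjusted p. Array values of SLC2A3 were added after they were seen. Between lines, harvest differences correlated from -0.282 to 0.585, which does not settle whether replicate numbers pair the samples. The main fit did not pair them. Wild-type cells and another V5 array are not analysed here. Start regions were read with Python 3.11.15.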

Additional observations from a re-analysis of the deposited data

Results flagged for a closer look

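In 31 groups of 4 gelsolin line values, 2 had a line far from the others, where chance gives about 1 in 20. For ENO2 the gap between C2 and the nearest other line was 0.865 of the range of the 4 lines, with C2 at 376 and the others between 536 and 566. For BNIP3 the gap of C8 was 0.914 of the range, with C8 at 947 and the others between 1186 and 1212. In both genes these lines still lay above V4 and V5.

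BNIP3L differed in direction between beadchips. On beadchip 1 its 4 gelsolin arrays (560.3 to 664) were all below the V4 array (811). On beadchip 2 the 4 gelsolin arrays (753 to 1029.6) were all above the mean of the vector arrays, of which V4 gave 774 and V5 gave 727. The log2 difference between gelsolin and vector arrays was higher by 0.563 on beadchip 2. This difference between beadchips was not tested.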

How the results depend on the processing

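Over 20 alternatives no call of the 31 genes turned its direction, and SLC2A1 and ENO2 were called in each. The count called higher (9) and lower (3) was 9 and 3 with the replicate block, where SLC2A3 passed and PGK1 did not, and 11 and 4 under quantile normalization, with or without normexp. Of all genes, 10.7% were higher and 8.72% lower with the replicate block. Under quantile normalization, with or without normexp, 12.9% of all genes were higher and 12.5% lower, beside 12.8% and 9.40% in the main fit. Within beadchip 1, with V4 as its lone vector array, 1 was higher, 2 were lower and the median was 0.083, and within beadchip 2 the median was 0.34. On beadchip 2 alone, 8 of the 31 genes were higher and 3 lower, beside 933 higher and 564 lower of all genes. The one-way analysis of variance left 2 higher and 1 lower. Without C8, 15.2% of all genes were higher and 9.30% lower. Leaving out 1 line at a time gave 1 (without V5) to 12 (without C8) genes higher, 2 to 3 lower and a median from 0.18 (without C1) to 0.30, and 3 higher without V4. Of all genes, 66 were higher and 140 lower within beadchip 1, 564 lower within beadchip 2, 522 higher and 364 lower without V4, 289 higher and 347 lower without V5, and 240 higher and 243 lower by the analysis of variance. Without V5 or within beadchip 1, ALDOC, BNIP3, ENO3, GAPDH, HK1, PDK3, PFKL, PFKM and PGK1 lost their calls. Without V4, BNIP3, GAPDH, HK1, NDRG1, PDK3, PFKL and PGK1 did. In these fits fewer vector arrays entered, and the estimates changed too, with the median of 0.083 within beadchip 1 beside 0.26 in the main fit. Why the calls were lost was not tested. No harvest call among the 31 appeared in any alternative. Over the 47 named genes, 804 of the values kept direction and side of the threshold, 99 fell short of it, 15 newly passed it and 16, of genes not called in either setting, changed sign. With background in the signals and 2 vector lines, small differences of dim probes could not be resolved.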
